A study of Mus musculus with 8 samples.

Results

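Progenitor and biliary-type tumor markers, 10 genes used to mark liver progenitor cells and bile duct epithelium, were followed through 8 mouse liver libraries. They were taken by name from the 21878 genes of the deposited tables, all 10 were found, and all 10 passed the filter on low counts that left 14726 tested genes. They are Prom1, Cd44, Epcam, Ly6d, Anxa2, Anxa5, Golm1, Spp1, Krt19 and Sox9. Liver of C57BL/6 mice was sequenced as stranded mRNA libraries in 4 groups. Wild-type tumor has 3 libraries, with the numbers 1, 2 and 3. Wild-type normal liver has 2 libraries (2 and 3), tumor of Nfib-deleted mice has 2 (2 and 3) and normal liver of Nfib-deleted mice has 1 (3). The deletion combines a floxed Nfib gene with Cre driven by the albumin promoter, which is active in hepatocytes and in their fetal precursors, from which bile duct cells also come. The values here do not show which cells kept the gene. Nfib belongs to the nuclear factor I (NFI) family of transcription factors. An age of 14 to 16 days is given for every sample, tumors included, and no agent used to induce tumors is named in the labels. Libraries are called wild type or knockout here as they were labelled.

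Prom1, Epcam, Krt19 and Sox9 are textbook markers of bile duct cells and of the bipotent hepatic progenitor cells that expand when hepatocytes cannot replace themselves. SOX9 is the transcription factor of the developing bile duct, KRT19 is a keratin of simple duct epithelium, EPCAM is an adhesion molecule of epithelial cells, and PROM1, known as CD133, is a protein of membrane protrusions used to isolate stem-like tumor cells. CD44 is a receptor for hyaluronan and for osteopontin, the secreted phosphoprotein encoded by Spp1, which bile duct cells, stellate cells and macrophages can all make. Anxa2 and Anxa5 encode annexins, which bind membrane phospholipids in the presence of calcium. Golm1 encodes a Golgi membrane protein that is studied as a serum marker of human liver tumors. Ly6d encodes a cell surface protein held by a lipid anchor, first known from lymphocytes and squamous epithelium. In the annotation deposited with the counts, 5 of the 10 genes (Prom1, Cd44, Anxa2, Epcam and Ly6d) carry the term cell surface, which 2.90% of the 21878 genes carry.

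The promoters of Anxa2 and Golm1 are shown because these members had the most alike profiles of any pair, and that of Epcam because its profile ran apart from theirs. Each is the 250 bases before a RefSeq start in GRCm38.p6, read 5′ to 3′ on the strand of the gene, in lower case with matches to 4 short motifs in capitals. The lines cover chr9:69453433-69453682 on the plus strand for Anxa2, chr13:59675785-59676034 on the minus strand for Golm1 and chr17:87635729-87635978 on the plus strand for Epcam.
Anxa2: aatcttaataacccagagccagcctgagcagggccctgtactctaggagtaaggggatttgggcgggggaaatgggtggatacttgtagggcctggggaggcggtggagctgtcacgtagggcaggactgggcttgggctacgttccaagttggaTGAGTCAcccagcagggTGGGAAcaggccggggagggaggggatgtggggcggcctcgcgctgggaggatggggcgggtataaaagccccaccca
Golm1: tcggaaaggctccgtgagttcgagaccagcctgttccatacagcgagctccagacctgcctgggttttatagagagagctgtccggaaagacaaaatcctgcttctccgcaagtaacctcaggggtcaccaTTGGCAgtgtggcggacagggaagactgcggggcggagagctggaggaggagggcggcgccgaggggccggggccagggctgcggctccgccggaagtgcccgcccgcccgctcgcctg
Epcam: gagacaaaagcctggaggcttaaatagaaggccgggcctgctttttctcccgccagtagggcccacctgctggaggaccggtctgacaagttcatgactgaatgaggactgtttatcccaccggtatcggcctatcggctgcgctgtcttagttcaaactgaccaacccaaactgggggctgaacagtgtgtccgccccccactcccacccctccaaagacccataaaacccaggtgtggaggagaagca
The motifs were TTGGCA, found in sites of NFI factors, GGAATG for TEAD factors, TGGGAA for RBPJ, the DNA-binding partner of Notch, and TGANTCA for AP-1, each searched on both strands. In Anxa2 the capitals are TGAGTCA at position -95 from the start and TGGGAA at -78. In Golm1 they are TTGGCA at -119, and the Epcam window held none of the 4. RefSeq promoters were found for 7 members, with 9 windows of 300 bases that reach 50 bases past the start. TTGGCA was in 1 of these 9 windows, GGAATG in 0, TGGGAA in 3 (Anxa2, Cd44 and Prom1) and TGANTCA in 3 (Anxa2 and both starts of Prom1). Of 32851 such windows in the table, 14.1% held TTGGCA, 14.7% GGAATG, 25.6% TGGGAA and 7.81% TGANTCA.

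Total counts ran from 11912549 in wild-type normal 2 to 19965842 in wild-type tumor 2. All 6 hepatocyte markers were detected in all 8 libraries, with a summed level of 73840 to 161255 CPM (counts per 1000000 counts of the library, from the deposited counts). The CPM printed were not scaled further, whereas the fits used TMM (trimmed mean of M values) factors, which ran from 0.901 in wild-type tumor 2 to 1.18 in wild-type normal 2. Most of the hepatocyte sum was Alb, and Cyp2e1 was at 61.8 CPM in wild-type tumor 2 against 2367 to 6835 CPM in the other 7. Anxa2, Anxa5 and Golm1 were highest in that same library, and whether this bears on their values was not tested. Nfib itself was not lower in the libraries labelled knockout, with 82.8 ± 4.87 CPM over 3 knockout libraries and 73.2 ± 23.3 CPM over 5 wild-type libraries (mean ± SD). Reads outside a deleted exon are still counted, so these values do not check the labels. Wild-type tumor 2 had the lowest correlations with the other libraries (Pearson r of 0.851 to 0.921 across tested genes). Knockout tumor 2 held squamous epithelium markers at 500 CPM in sum, against at most 3.24 CPM elsewhere, and skeletal muscle markers at 2013 CPM, against 629 CPM in knockout normal 3 and at most 91.4 CPM in the other 6. The labels do not say whether libraries come from separate animals, so that p-values measure the spread between these libraries.

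Per unit of transcript length the members covered a wide range, in the deposited FPKM (fragments scaled by transcript length and by depth). Spp1 was the most abundant, at 209 ± 122 FPKM (SD, n = 8), followed by Ly6d at 110.5 ± 169 FPKM and Anxa5 at 101 ± 48.1 FPKM. Anxa2 stood at 48.0 ± 46.3 FPKM. Golm1 (8.13 ± 9.18 FPKM), Krt19 (6.05 ± 5.68), Prom1 (4.72 ± 4.2), Epcam (4.0 ± 2.44), Cd44 (3.68 ± 1.0) and Sox9 (2.0 ± 0.70) were lower. Ly6d, Anxa5 and Spp1 lay within each other's spread between libraries, as did the 6 less abundant genes. Some orders still held within every library, such as Spp1 above Anxa5 and Cd44 above Sox9. Between its highest and lowest library Ly6d differed 66.9-fold, Krt19 14.0-fold and Golm1 13.6-fold, while Sox9 differed 2.70-fold and Cd44 1.88-fold.

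**Figure D1:**
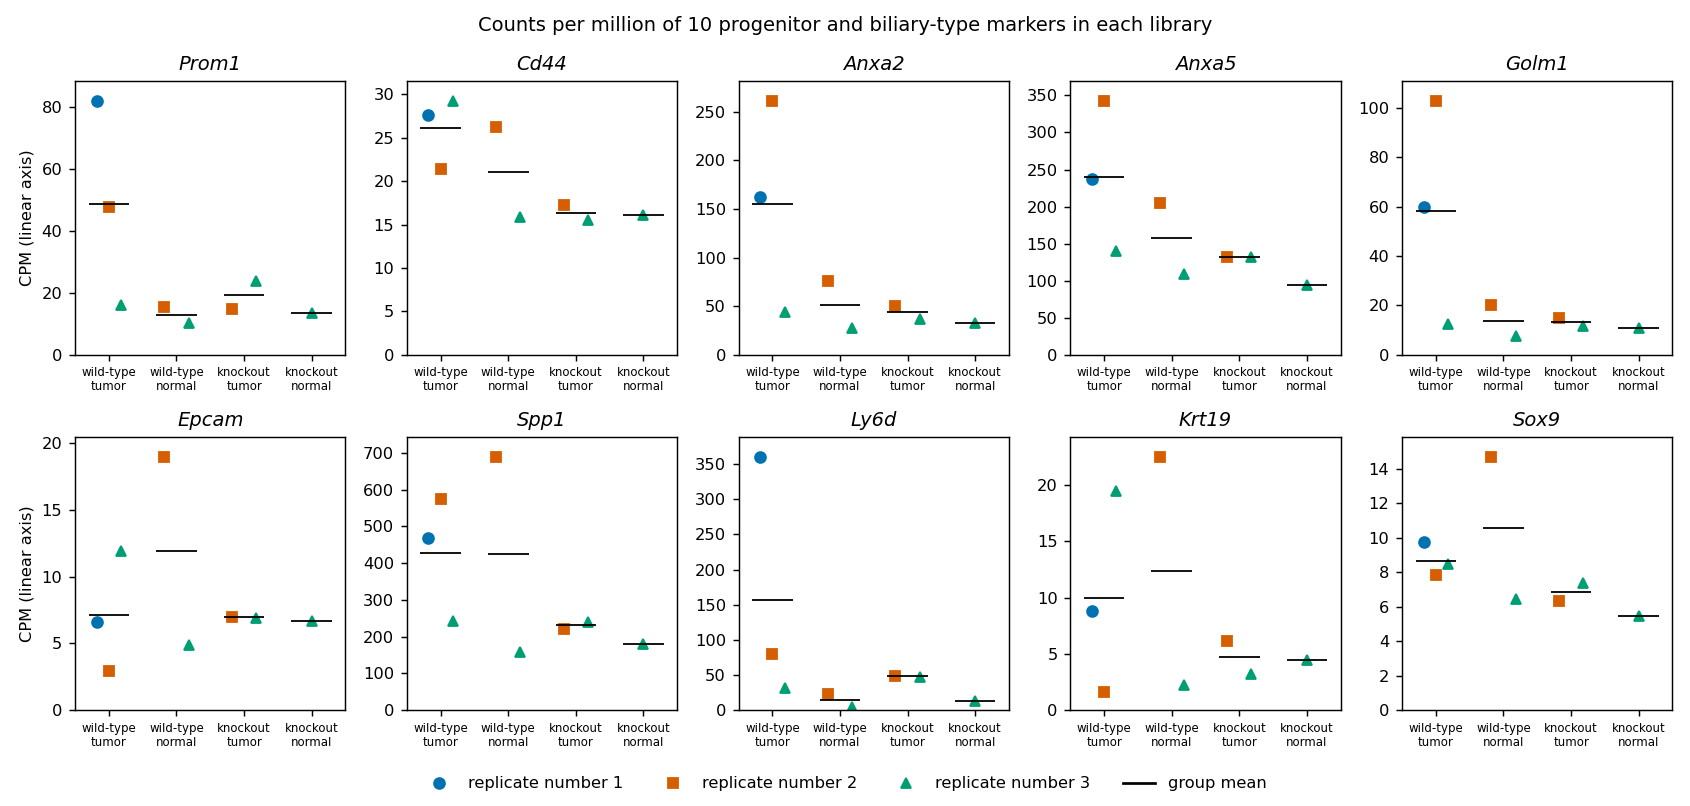
Each panel plots CPM on a linear axis for 1 gene in the 4 groups, with 1 point per library, its shape and color giving the replicate number, and a line at the group mean. Ly6d, Golm1, Anxa2 and Prom1 are highest in wild-type tumors 1 and 2, while Epcam, Krt19 and Sox9 are highest in wild-type normal 2.

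Among the surface markers, Ly6d set tumor apart from normal liver without overlap. Its level was 360.0, 80.4 and 31.7 CPM in wild-type tumors 1, 2 and 3, and 48.9 and 47.7 CPM in knockout tumors 2 and 3. Wild-type normals 2 and 3 had 23.1 and 5.39 CPM, and knockout normal 3 had 13.7 CPM. All 5 tumors lay above all 3 normal livers, and wild-type tumor 1 was far above the rest. Ly6d was the only member for which this held, and 0.713% of all tested genes were likewise higher in every tumor (0.964% with CPM scaled by TMM, where Ly6d was again the only member). In knockout tumor 2, the library with squamous transcripts, Ly6d was at the level of knockout tumor 3, where the squamous markers summed to 0.757 CPM. The part of squamous cells in Ly6d was not tested.

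Prom1 was at 81.9, 47.7 and 16.0 CPM in wild-type tumors 1 to 3, and at 14.6 and 23.9 CPM in knockout tumors 2 and 3. The normal livers had 15.4, 10.1 and 13.6 CPM in wild-type normals 2 and 3 and knockout normal 3. Wild-type tumors 1 and 2 thus stood above all others, and knockout tumor 2 lay within the range of normal liver. The order of group means, wild-type tumor (48.5 ± 32.9 CPM, SD, n = 3), knockout tumor (19.3 ± 6.57, n = 2), knockout normal (13.6, n = 1) and wild-type normal (12.8 ± 3.75, n = 2), had no neighbours that differed beyond their spread.

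Cd44 moved within a narrow band. It was at 27.7, 21.4 and 29.2 CPM in wild-type tumors 1 to 3 and at 17.2 and 15.5 CPM in knockout tumors 2 and 3, so that the tumors of the 2 genotypes did not overlap. Wild-type normals 2 and 3 had 26.2 and 15.9 CPM, and knockout normal 3 had 16.1 CPM. All 3 knockout libraries, together with wild-type normal 3, lay between 15.5 and 17.2 CPM. Epcam was highest in wild-type normal 2 (19.0 CPM) and wild-type tumor 3 (11.96 CPM) and lowest in wild-type tumor 2 (2.90 CPM, 58 counts). The other 5 libraries had Epcam between 4.87 CPM (wild-type normal 3) and 7.0 CPM (knockout tumor 2), with 6.65 CPM in wild-type tumor 1, 6.93 in knockout tumor 3 and 6.68 in knockout normal 3.

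The annexins and Golm1 were highest in wild-type tumor 2 and next highest in wild-type tumor 1. Anxa2 was at 162, 261 and 43.7 CPM in wild-type tumors 1 to 3, 50.5 and 36.6 CPM in knockout tumors 2 and 3, 75.9 and 27.3 CPM in wild-type normals 2 and 3, and 32.3 CPM in knockout normal 3. Golm1 was at 60.0, 103 and 12.5 CPM in wild-type tumors, 14.8 and 11.6 CPM in knockout tumors, 20.1 and 7.56 CPM in wild-type normals, and 10.8 CPM in knockout normal 3. For both genes wild-type normal 2 stood above wild-type tumor 3 and both knockout tumors. Anxa5 spread less, at 237, 342 and 140 CPM in wild-type tumors, 132 and 133 CPM in knockout tumors, 205 and 109 CPM in wild-type normals and 94.8 CPM in knockout normal 3.

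The duct genes Krt19 and Sox9 were highest in a normal liver, wild-type normal 2. The secreted factor Spp1 was highest there in CPM but in wild-type tumor 2 once scaled by TMM (639 against 582 CPM). Unscaled, Spp1 was at 468, 575 and 243 CPM in wild-type tumors 1 to 3, 221 and 241 CPM in knockout tumors 2 and 3, 689 and 158 CPM in wild-type normals 2 and 3, and 180.3 CPM in knockout normal 3. Krt19 was at 8.81, 1.60 and 19.5 CPM in wild-type tumors, 6.19 and 3.26 CPM in knockout tumors, 22.5 and 2.23 CPM in wild-type normals, and 4.44 CPM in knockout normal 3. Its highest tumor and highest normal library were close, as were its lowest ones, so that tumor and normal liver covered the same range. Sox9 was at 9.77, 7.81 and 8.46 CPM in wild-type tumors, 6.31 and 7.39 CPM in knockout tumors, 14.7 and 6.47 CPM in wild-type normals, and 5.44 CPM in knockout normal 3.

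**Figure D2:**
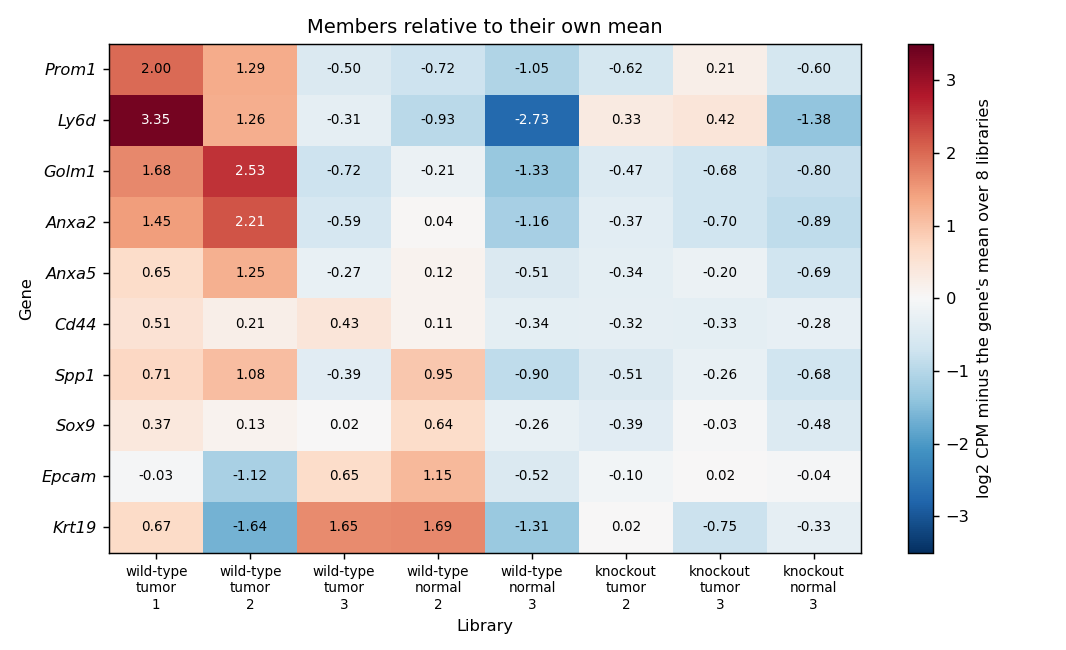
Rows are the 10 genes and columns the 8 libraries, and each cell gives log2 CPM (scaled with TMM) minus the mean of that gene over the 8 libraries, in red where above and in blue where below. Prom1 to Anxa5 are high in wild-type tumors 1 and 2, and Krt19 and Epcam are high in wild-type normal 2 and wild-type tumor 3 and low in wild-type tumor 2.

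The libraries differed in how the members ranked in unscaled CPM. Wild-type normal 3 held the lowest or the next lowest of the 8 values for 9 members, and knockout normal 3 for 7 (6 with TMM). Wild-type tumor 1 was among the top 2 libraries for 7 members, wild-type tumor 2 for 6, wild-type normal 2 for 4 and wild-type tumor 3 for 3. No knockout library was among the top 2 for any member, with or without TMM. Wild-type tumor 2 was also the lowest of all for 2 members, Epcam and Krt19. On the centred log2 scale the mean over the 10 members was 1.14 in wild-type tumor 1, 0.72 in wild-type tumor 2, 0.28 in wild-type normal 2 and at or below 0 in the other 5, down to -1.01 in wild-type normal 3.

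In tumor against normal liver, with genotype in the model, no member passed in edgeR's quasi-likelihood test (adjusted p of 0.922 or more), and 0% of all 14726 genes did. At an unadjusted p under 0.05 edgeR gave 259 genes, and DESeq2 called 5 genes after adjustment, none of them a member. Fitted log2 fold changes were above 0 for 8 of the 10 members, with a median of 0.49, while 52.2% of all genes were above 0 with a median of 0.01. Ly6d had 2.96 ± 0.98 (SE, n = 5 and 3), Golm1 1.52 ± 0.79, Prom1 1.49 ± 0.62, Anxa2 1.29 ± 0.66, Anxa5 0.68 ± 0.35 and Cd44 0.30 ± 0.17. These 6 were above 0 in each of the alternatives run, and leaving out 1 library moved Ly6d between 2.05 (without wild-type tumor 1) and 3.75 (without knockout normal 3). Prom1 ran from 1.09 without wild-type tumor 1, Golm1 from 1.01, Anxa2 from 0.86 and Cd44 from 0.12 without wild-type normal 3, and Anxa5 from 0.43 without wild-type tumor 2. Without knockout normal 3, Golm1 reached 2.36, Prom1 2.15, Anxa2 1.87 and Cd44 0.50, while Anxa5 reached 0.85 without wild-type tumor 3. Spp1 (0.30 ± 0.47), Sox9 (0.05 ± 0.25), Krt19 (-0.07 ± 0.82) and Epcam (-0.36 ± 0.49) lay within their SE of 0 and changed sign under at least 1 alternative, Sox9 also when scaled by library totals. Ly6d and Prom1 had an unadjusted p under 0.05 (0.0180 and 0.0457), both higher in tumor, as did 1.46% of all genes in that direction. Without wild-type normal 2 all 10 members were above 0 with a median of 0.93, and without wild-type normal 3 it was 6 of 10 with a median of 0.31.

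Within wild type no member passed in edgeR either (adjusted p of 0.845 or more, 0% of all genes called). Ly6d was at 3.74 ± 1.21 (log2, SE, n = 3 and 2), Golm1 at 2.35 ± 0.91, Prom1 at 2.14 ± 0.72, Anxa2 at 1.86 ± 0.81, Anxa5 at 0.83 ± 0.46 and Cd44 at 0.49 ± 0.20. Spp1 was at 0.29 ± 0.63, Sox9 at -0.08 ± 0.33, Krt19 at -0.11 ± 1.09 and Epcam at -0.54 ± 0.64. Without wild-type tumor 1 Ly6d was at 2.26, and without wild-type tumor 2 Anxa2 was at 1.23 and Anxa5 at 0.44. Of the 10 members 7 were above 0, as were 50.3% of all genes. Ly6d, Prom1, Golm1 and Cd44 had an unadjusted p under 0.05, each higher in tumor, against 1.63% of all genes. Ly6d and Prom1 were higher in all 3 wild-type tumors than in both wild-type normals, against 4.03% of all genes. With TMM this held for Cd44 as well, against 6.5% of all genes. DESeq2 called 15 genes here, among them Ly6d with an adjusted p of 0.0494, and limma-voom called 0. The median over the members was 0.66, 1.80 without wild-type normal 2 and 0.43 without wild-type normal 3, while Krt19, at -0.11 with all libraries, was at 2.12 once wild-type normal 2 was left out. The difference between the tumor effects of the genotypes passed for no member (edgeR adjusted p of 0.9999 for each), with 0% of all genes called. No member had an unadjusted p under 0.05, against 0.319% of all genes (47), and the knockout effect rested on 1 normal liver.

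Between the tumors, all 10 members had a lower fitted level in knockout than in wild type. No member passed in edgeR (adjusted p of 0.888 or more), and 0% of all genes did. The log2 fold change was -2.26 ± 0.90 (SE, n = 2 and 3) for Golm1, -1.95 ± 0.81 for Anxa2, -1.78 ± 1.09 for Ly6d, -1.40 ± 0.69 for Prom1 and -0.94 ± 0.46 for Anxa5. It was -0.97 ± 0.65 for Spp1, -0.72 ± 0.20 for Cd44, -1.07 ± 1.13 for Krt19, -0.39 ± 0.33 for Sox9 and -0.05 ± 0.64 for Epcam. The median was -1.02, against -0.0037 over all genes, of which 50.4% were below 0. Epcam changed sign in the limma fits, when wild-type tumor 3 was left out (0.44) and when knockout tumor 2 was (0.012), and the other 9 were below 0 whichever library was left out. Cd44 and Golm1 had an unadjusted p under 0.05 (0.00945 and 0.0435), against 1.26% of all genes in that direction.

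Both knockout tumors lay below all 3 wild-type tumors for Cd44, Anxa5, Spp1 and Sox9, and 7.44% of all genes were lower without overlap in this way. With CPM scaled by TMM this held for Cd44 and Sox9 alone, against 7.56% of all genes, since Anxa5 and Spp1 were then higher in knockout tumor 3 (139 and 252 CPM) than in wild-type tumor 3 (132 and 231 CPM). For Anxa2 and Prom1 wild-type tumor 3 lay between the 2 knockout tumors, and for Ly6d it lay below both. For Golm1 it lay between them in CPM and below both with TMM. Without wild-type tumor 1 Ly6d was at -0.31 and Prom1 at -0.81. Without wild-type tumor 2 Golm1 was at -1.54, Anxa2 at -1.32 and Anxa5 at -0.55. Krt19 was at -0.24 without wild-type tumor 3, and Sox9 at -0.22 without knockout tumor 2.

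Over both tissues all 10 members were again lower in the fit for knockout, with no call in edgeR (adjusted p of 0.705 or more, 0% of all genes called). Since the tumors enter both comparisons, these values are not independent of those above. The median was -0.88, and 52.8% of all genes were below 0. Cd44 had the smallest p of the members, with 16.3 ± 0.843 CPM in the 3 knockout libraries and 24.1 ± 5.43 CPM in the 5 wild-type ones (mean ± SD). Its log2 fold change was -0.52 ± 0.17 (SE), and the edgeR adjusted p was 0.705. It was the only member with an unadjusted p under 0.05 (0.0168), against 2.94% of all genes in that direction. For all 10 members the knockout and wild-type libraries overlapped, whereas 3% of all genes were lower in every knockout library (2.76% with TMM, again with no member). Epcam changed sign without wild-type tumor 3 (0.046) or wild-type normal 2 (0.096). Ly6d changed sign only with a replicate block by number, given further below. Without wild-type tumor 1 Ly6d was at -0.10 and Prom1 at -0.36, and without wild-type normal 2 Krt19 was at -0.50.

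**Figure D3:**
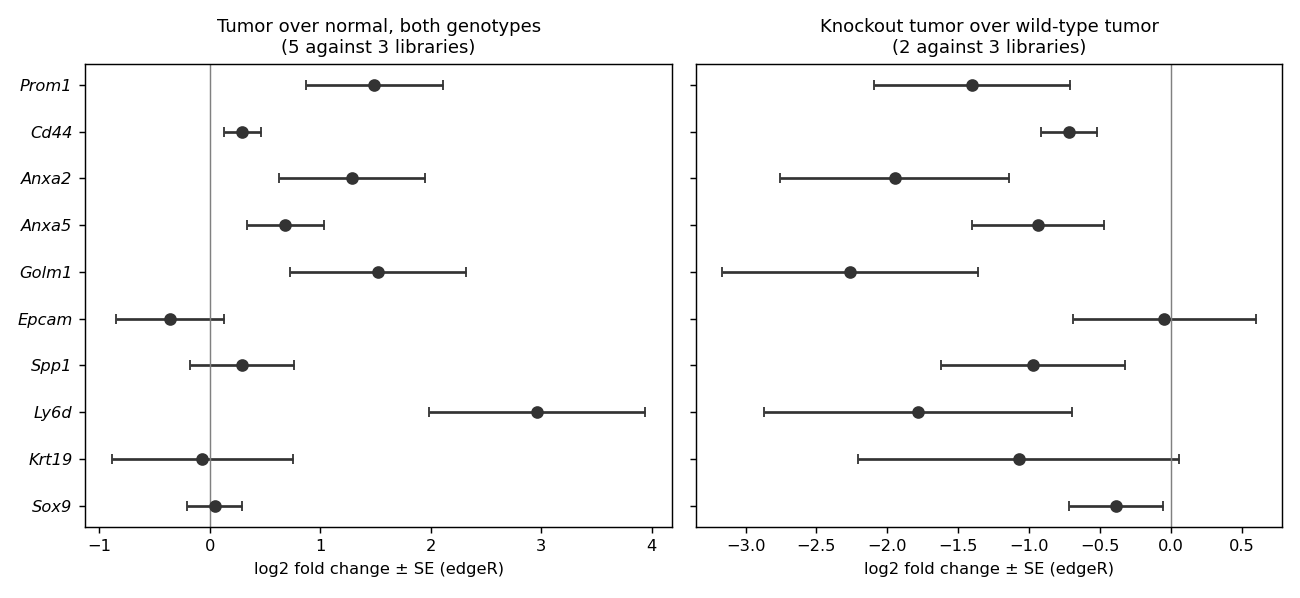
Points give the log2 fold change of each member and bars its SE from edgeR, for tumor over normal on the left and knockout tumor over wild-type tumor on the right, with a line at 0. Ly6d has the largest tumor value (2.96) and Golm1 the lowest knockout value (-2.26), and no point passed the adjusted threshold of 0.05.

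Among the tumors, 3 share a replicate number with a normal liver of the same genotype, but nothing in the labels ties a number to 1 animal. In wild-type tumor 3 over wild-type normal 3 all 10 members were higher, with log2 ratios from 0.35 for Anxa5 to 3.12 for Krt19. In wild-type tumor 2 over wild-type normal 2 Golm1 (2.35), Ly6d (1.80), Anxa2 (1.78), Prom1 (1.63) and Anxa5 (0.74) were higher. The other 5 were lower, with Krt19 at -3.81, Epcam at -2.71, Sox9 at -0.91, Cd44 at -0.29 and Spp1 at -0.26. With TMM scaling Cd44 (0.10) and Spp1 (0.13) were above 0, which made 7 higher and 3 lower, while no sign turned in the other sets of libraries. Krt19 and Epcam thus ran in opposite directions in these 2 sets of libraries. In knockout tumor 3 over knockout normal 3 the ratios were small, from -0.44 for Krt19 to 0.81 for Prom1, except for Ly6d at 1.80. Ly6d was higher in the tumor each time, at 1.80, 2.56 and 1.80.

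**Figure D4:**
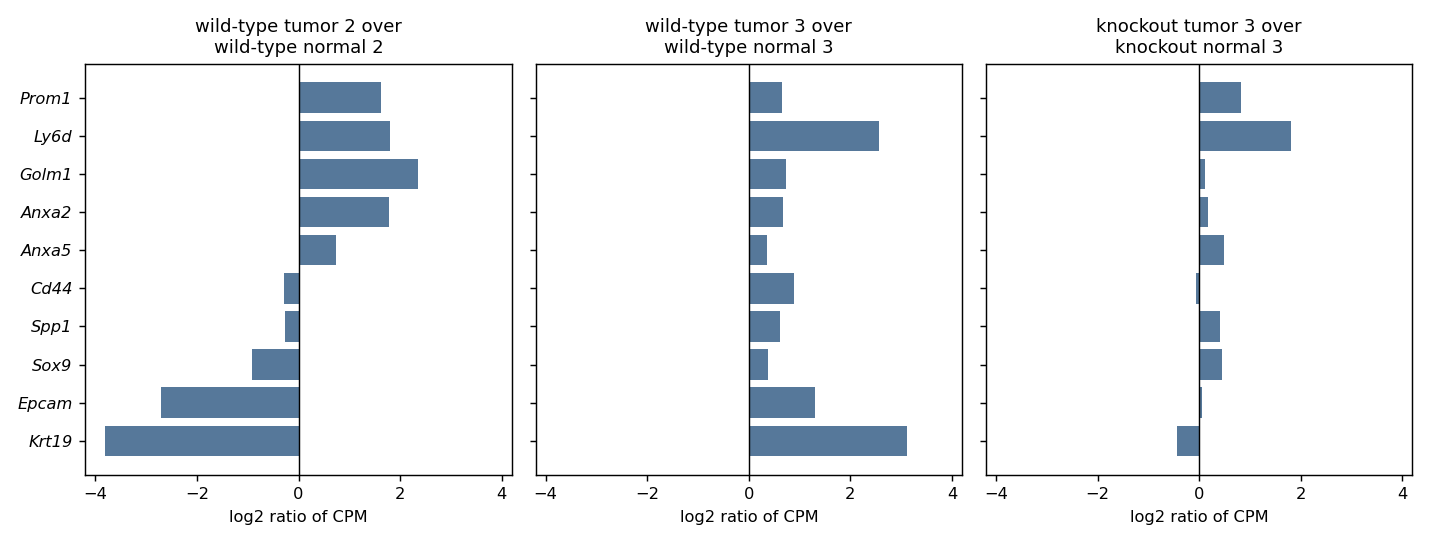
Bars give the log2 ratio of unscaled CPM in a tumor library over the normal library of the same genotype and number, 1 panel per number and genotype, with no error since each side is 1 library. Krt19 is at -3.81 in the left panel and 3.12 in the middle panel, and Ly6d is above 0 in all 3.

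The authors' deposited tables of 1 library against 1 library are limited to genes with an unadjusted p under 0.05 and at least a 2-fold difference. The authors' deposited table of knockout tumor 3 over knockout normal 3 lists 1 member among 317 genes, Ly6d with a fold of 3.47 (the authors' adjusted p 1.39e-09). The authors' deposited table of wild-type tumor 3 over wild-type normal 3 lists 3 members among 270 genes, Krt19 with a fold of 8.17 (adjusted p 4.30e-14), Ly6d with 5.52 (1.62e-17) and Epcam with 2.30 (0.117). The authors' deposited table of wild-type tumor 2 over wild-type normal 2 lists 5 members among 1001 genes, Golm1 with a fold of 6.73, Ly6d with 4.59, Prom1 with 4.08, Epcam with 0.202 and Krt19 with 0.0940. In that authors' deposited table none of the 5 had an adjusted p under 0.05 (Krt19 0.144, Golm1 0.224, Ly6d 0.513, Prom1 0.567 and Epcam 0.712). P-values from 1 library a side do not measure the spread between libraries. Each listed member had the same direction in the CPM ratios above, which rest on the same libraries.

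Likeness of profile was measured as the root mean square difference of centred log2 CPM over the 8 libraries. Anxa2 and Golm1 were the closest members, at 0.19, followed by Cd44 and Sox9 at 0.28 and Anxa5 and Spp1 at 0.34. Ly6d and Krt19 were the farthest apart, at 1.97. Among 12915 other genes of at least 1 CPM on average, the closest to Golm1 were Smox (0.14) and Fkbp11 (0.21), those to Anxa2 were Calml4 (0.18) and Tes (0.21), and those to Anxa5 were Krtcap2 (0.13) and Dbndd2 (0.13). The closest to Prom1 were Drc1 (0.24) and Lss (0.26), and those to Ly6d were Tspan8 (0.61) and Ocstamp (0.66). The closest to Krt19 were Muc1 (0.31) and Klf5 (0.40), those to Epcam were Ikzf2 (0.19) and Scara3 (0.21), and those to Sox9 were Pkhd1 (0.11) and Osmr (0.15). Spp1 was closest to Casp12 (0.17) and Clcf1 (0.17), and Cd44 to Zfp52 (0.08) and Espl1 (0.12). The median over all those genes was 1.74 for Ly6d and 0.46 for Cd44, so that a small value means less for a gene that varies little.

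Of 22 other biliary and progenitor genes, none passed in edgeR in either direction. Fitted levels in tumor against normal were higher for 13 of them (median 0.20), and in knockout against wild type 17 were lower (median -0.55). Tspan8, a tetraspanin, was at 180.4 CPM in wild-type tumor 1, 39.7 in wild-type tumor 2, 37.0 in wild-type normal 2 and 4.53 to 30.0 CPM in the other 5 (tumor log2 fold change 1.73 ± 0.95). Dlk1, a fetal hepatoblast marker, reached 19.996 CPM in wild-type tumor 1 and did not exceed 3.43 CPM in the other 7 (2.02 ± 1.29).

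Of 16 tested genes for osteopontin and hyaluronan partners, which hold the integrins and enzymes around Spp1 and Cd44, none passed in edgeR, and 7 were higher in tumor (median -0.02). Mmp14, a membrane-bound matrix protease, had a tumor log2 fold change of 0.40 ± 0.17, Itgb5 had 0.48 ± 0.22 and the hyaluronan receptor Hmmr had 1.69 ± 0.78. Itga5 was at -0.54 ± 0.18 and Mmp9 at 0.92 ± 0.34 in knockout against wild type. Of 13 other annexins and S100 partners none passed and 11 were higher in tumor (median 0.22), with S100a11 at 1.03 ± 0.59, Anxa4 at 0.53 ± 0.36 and Anxa11 at 0.20 ± 0.17. In knockout against wild type Anxa6 was at 0.50 ± 0.15, opposite in sign to Anxa2 and Anxa5, and Anxa3 at -0.68 ± 0.28.

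Of 15 genes of YAP and Notch signaling, both of which act on Sox9 in bile duct development, none passed in edgeR. Of these, 12 were higher in tumor (median 0.23) and 12 lower in knockout (median -0.32). Tead2 (1.36 ± 0.51), Tead4 (1.38 ± 0.62) and Wwtr1 (0.70 ± 0.32) had the smallest p for tumor against normal. Hes1, a Notch target, was at 8.52 to 11.9 CPM in the 3 knockout libraries and 21.6 to 30.6 CPM in the 5 wild-type ones, which is a fitted log2 difference of -1.32 ± 0.18 (edgeR adjusted p of 0.705), and Tead2 was at -1.75 ± 0.52. Of 7 tested relatives of Ly6d none passed, 5 were higher in tumor (median 0.14), and the gene with the smallest p was Ly6k, with 24.8 CPM in wild-type tumor 1 and no more than 1.34 CPM in any other library. Lypd3 was seen in knockout tumor 2 only, at 4.42 CPM. Ly6c2 was at 0.98 ± 0.26 and Ly6g at 2.50 ± 1.02 in knockout against wild type. Ly6g was near the floor, with 19 counts in knockout normal 3, 9 in knockout tumor 3 and at most 3 in any other library.

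Markers of other cell types varied across the same libraries. In bulk tissue, fewer cells of a type and less RNA per cell cannot be told apart. The 6 cholangiocyte markers that are not members were detected in all 8 libraries and summed to 125 CPM in wild-type normal 2 and 43.6 to 73.3 CPM in the others. Wild-type normal 2, where Krt19, Epcam and Sox9 were highest, thus had the most of them. It also had the lowest sum of hepatocyte markers (73840 CPM, against 99157 to 161255). Alb, at 50476 CPM, made most of that sum and was lowest there. In unscaled CPM, Apoa1, Ttr, Cyp2e1, Hnf4a and Cps1 were each lower in some other library. With TMM, Apoa1 and Hnf4a were also lowest in wild-type normal 2 (centred log2 CPM of -0.378 and -0.506), Apoa1 by little. Ttr, Cyp2e1 and Cps1 were still lower elsewhere. The part of this in the members' values was not tested. In wild-type tumor 3, where Krt19 and Epcam were next highest, the cholangiocyte sum was 66.4 CPM, below that of wild-type tumor 2 (71.8 CPM), where both were lowest. The 4 markers of mesothelium, a lining that also makes Krt19, summed from 0.10 CPM (wild-type tumor 2) to 16.6 CPM (knockout tumor 2). The sum was 7.89 CPM in wild-type tumor 3, and Msln, Upk1b and Wt1 were at 0 in wild-type tumor 2. Krt19 was at 6.19 CPM in knockout tumor 2 and highest, at 22.5 CPM, in wild-type normal 2. The part of mesothelium in Krt19 was not tested.

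Stellate cell markers were most abundant in knockout tumor 2 (922 CPM in sum) and wild-type normal 2 (853 CPM), and summed to 205 to 434 CPM in the other 6. Of the sum in knockout tumor 2, 229 CPM was Des, which muscle also makes, and without Des wild-type normal 2 was higher (806 against 693 CPM). Macrophage markers, all 8 detected everywhere, had their lowest sum in wild-type tumor 2 (207 CPM) and their highest in wild-type tumor 3 (672 CPM). Spp1 was 575 and 243 CPM in these libraries. Clec4f, Vsig4, Marco, Adgre1, Csf1r and C1qa were each lowest in wild-type tumor 2. Cd68 (22.1 CPM) and Lyz2 (113 CPM) were not, and both were lower in wild-type tumor 1 (20.8 and 88.8 CPM). Lymphocyte markers summed to 26.5 to 61.0 CPM and endothelium markers to 129 to 604 CPM, both highest in wild-type tumor 3, where Cd44 was at 29.2 CPM. The lymphocyte sum was lowest in wild-type tumor 1, where Cd44 was at 27.7 CPM. The endothelium sum was lowest in wild-type tumor 2, where Cd44 was at 21.4 CPM. Neutrophil markers summed to 281 CPM in knockout tumor 3, 254 CPM in knockout normal 3 and at most 49.2 CPM elsewhere, while Cd44, which leukocytes carry, was at 15.5 and 16.1 CPM in those 2 libraries. Pancreas markers summed to 7.45 to 93.3 CPM, mostly from Cela1, and intestine markers to 34.2 to 123 CPM, mostly from Fabp2, with Sis at 0 in all 8 libraries. Cela1 and Cela2a were highest in wild-type tumor 2. Ctrb1 (51 counts), Pnlip (9 counts) and Cpa1 (4 counts), all low, were highest in wild-type normal 2. The most abundant marker in at least 5 of the 8 libraries was Alb for hepatocytes, Dcn for stellate cells, Lyz2 for macrophages, Ptprc for lymphocytes, Stab2 for endothelium and S100a9 for neutrophils. The part of these cells in the members' levels was not tested.

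**Figure D5:**
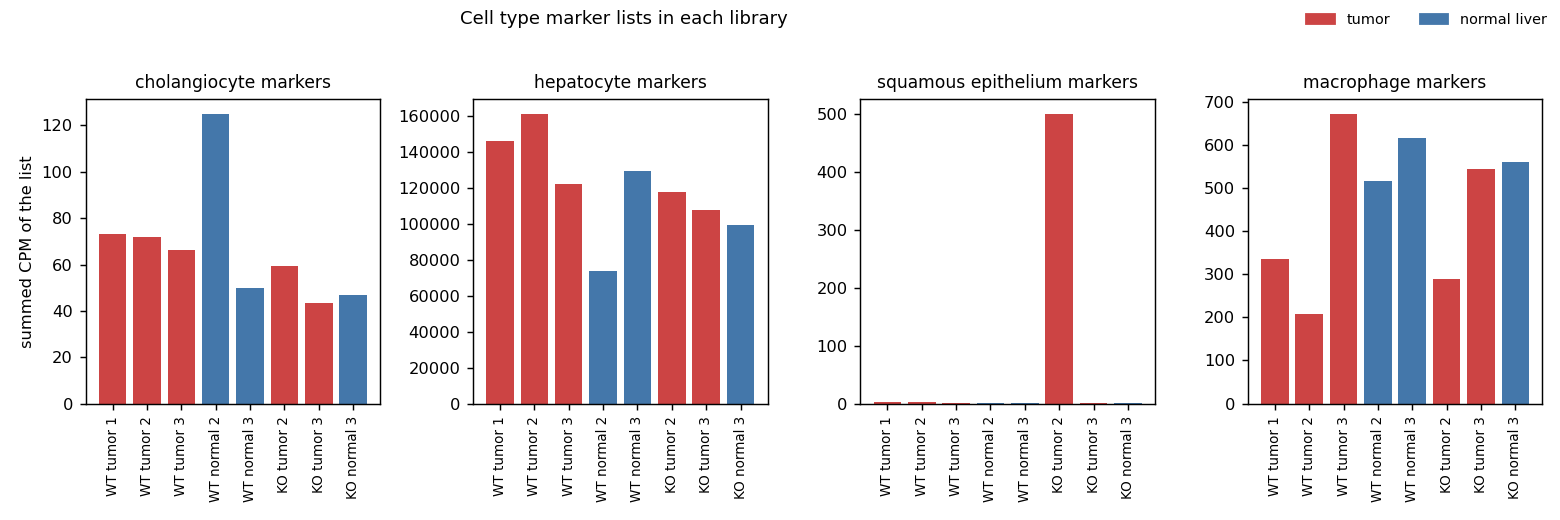
Bars give the summed CPM of 4 marker lists in each library, in red for tumor and blue for normal liver, each panel on its own linear axis from 0. Cholangiocyte markers peak in wild-type normal 2 (125 CPM), squamous markers in knockout tumor 2 (500 CPM), and macrophage markers are lowest in wild-type tumor 2 (207 CPM).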

How the data were processed

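RNA was measured in 8 liver libraries, with an RNA integrity number of 7 or more per the labels. The authors deposited raw counts per gene and FPKM values, and tables of 1 library against 1 library with a ratio (fold), its log2 value and p-values. Per the submitters' processing notes Bowtie 0.12.2 and the builds mm8 and mm9 were involved. The counting method, its use of strand and the tool behind the deposited p-values are not given in the sources used here, so reads of overlapping genes cannot be told apart. A deposited table whose header names a control outside the series, and 16 columns of values per library, were not used.

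Members and lists were chosen with earlier results of these data known. Counts were fitted with edgeR 4.0.16 in R 4.3.3 (TMM factors, minimum count of 10, robust quasi-likelihood), over all genes, with Benjamini-Hochberg adjustment at 0.05. The model had 1 mean per group, or genotype plus tissue for the comparisons over both. Knockout normal, with 1 library, was assumed to vary like the others. Log2 CPM for profiles used a prior count of 2. All members, the 2 genes nearest to each in profile, and of each further list the 3 genes of smallest p for tumor and the 2 for knockout were named, with the most abundant cell type markers. Some genes that this rule names are not reported here. The scripts were tested on simulated data. Alternatives were DESeq2 1.42.0, limma-voom 3.58.1, the deposited FPKM with a pseudocount of 0.1 or 1, other scalings, no filter, a replicate block and leaving out libraries.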

Additional observations from a re-analysis of the deposited data

How the results depend on the processing

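The values rest on 1 to 3 libraries a group, and with 58 counts or fewer per library Epcam and Krt19 were the least precise members in wild-type tumor 2. DESeq2 called 5 genes for tumor against normal, 45 for knockout against wild type, 4 between the tumors and 15 within wild type, where edgeR called 0 each time. Its only member was Ly6d, 1 member called within wild type. Without knockout tumor 2, and without both wild-type tumor 2 and knockout tumor 2 (chosen after seeing the data), edgeR called 2 genes for knockout against wild type, neither a member. With CPM scaled by TMM (chosen after seeing the data), 2 in place of 4 members were lower without overlap in knockout than in wild-type tumors. Of 870 recomputed log2 fold changes of members, 52 changed sign. Scaling by library totals moved the median of all genes to -0.15 within wild type and to 0.23 for the difference between the tumor effects.

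Equal replicate numbers are not stated to mark 1 animal. Deviations from group means correlated at 0.16 and 0.20 between wild-type tumor and normal of equal number, at 0.25 and 0.25 between wild-type normal and knockout tumor, and at -0.11 and -0.07 between wild-type and knockout tumors. The numbers were not taken to pair the libraries, under a rule that every correlation be over 0.1. Libraries of different genotypes cannot come from 1 animal, so their values do not bear on pairing by animal. Both values within wild type were over 0.1, so such pairing was left undecided. The 2 values of 0.25 are 1 number, since deviations in a group of 2 mirror each other. With a replicate block by number, Ly6d was at 0.35 for knockout against wild type, and the median of the members there was -0.47. Between the tumors that median was -0.64 and Ly6d was at -0.0014. In tumor against normal the block gave Krt19 0.016 and Sox9 -0.027, within wild type it gave Krt19 0.21, and for the difference it gave Spp1 -0.37 and Krt19 -0.42. With a replicate block within genotype the difference for Krt19 was -0.26. The blocks called no member.

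Other sign changes were these. For tumor against normal, Sox9 was at -0.073 with library totals, -0.00028 and -0.022 on log2 FPKM with a pseudocount of 0.1 and 1, and Krt19 was at 0.078 in limma-voom. Between the tumors Epcam was at 0.15 in limma-voom, and at 0.17 and 0.092 on log2 FPKM. Within wild type limma-voom gave Krt19 0.12 and Sox9 0.018. For the difference Spp1 was at -0.0066 with DESeq2 size factors and in DESeq2, and limma-voom gave Spp1 -0.11 and Krt19 -0.14. Without both tumors of number 2, Krt19 was at 0.14 for tumor against normal and 0.41 within wild type, where Spp1 was at -0.016, and the difference was 0.033 for Anxa5 and -0.86 for Krt19.

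Leaving out 1 library, the values for tumor against normal ran from -0.66 to 0.27 for Epcam, -0.065 to 0.88 for Spp1, -0.58 to 0.98 for Krt19 and -0.14 to 0.36 for Sox9. Within wild type they ran from -1.14 to 0.54 for Epcam, -0.35 to 1.49 for Spp1, -0.94 to 2.12 for Krt19 and -0.45 to 0.44 for Sox9. Epcam ran from -0.48 to 0.096 for knockout against wild type and from -0.42 to 0.44 between the tumors. For the difference between the tumor effects the ranges were -0.54 to 1.12 for Epcam, -1.19 to 0.64 for Spp1, -2.10 to 0.96 for Krt19 and -0.17 to 0.71 for Sox9. The difference could not be fitted without knockout normal 3. The causes of these changes were not tested.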
